A study of Mus musculus with 4 samples.

Results

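RNA of sorted blood monocytes was compared between mice that lack the transcription factor RBP-J in myeloid cells and control mice, in the Ly6Clo and the Ly6Chi subset, and the genes that differed between the genotypes in both subsets were collected. Of 23995 gene symbols, 8188 had an FPKM (fragments per kilobase of transcript scaled by the mapped fragments of the library) of 1 or more in all 4 libraries, and these are called the genes tested, although no significance test was made, because the members were chosen on this same contrast. For each subset the values of the deficient library were divided by those of the control library as (FPKM + 1), and a gene was a member if the log2 of this ratio was at least 1 in size in both subsets. This gave 201 genes, 2.45% of those tested. In both subsets 57 genes were higher without RBP-J, which is 0.696% of the genes tested, and 133 were lower, which is 1.62%. The other 11 went in opposite directions, with 5 higher in Ly6Clo and lower in Ly6Chi monocytes (0.0611%) and 6 the other way round (0.0733%).

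Each of the 4 groups held 1 library. The control mice were *Rbpj* +/+ *Lyz2* cre/cre, titled WT and given the genotype Lyz2-Cre in the deposited records, and the RBP-J-deficient mice were *Rbpj* fl/fl *Lyz2* cre/cre, recorded as RBP-Jfl/fl Lyz2-Cre. All 4 libraries thus came from animals that carry the Cre recombinase in the *Lyz2* locus, which is active in monocytes, macrophages and neutrophils, and no mice without Cre were sequenced here. Per the methods of the study the mice were young adults matched for sex and age. The number of animals behind each library and whether both subsets of a genotype came from the same animals are not given in the sources used here. A difference between genotypes that both subsets share and a difference between the animals sampled therefore cannot be told apart. In bulk RNA, fewer cells of a type and less RNA per cell cannot be told apart either.

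RBP-J is the DNA-binding protein of the canonical Notch pathway. When a Notch receptor meets its ligand on a neighbouring cell, its intracellular domain is cut free, enters the nucleus, and joins RBP-J with Mastermind-like coactivators to switch on target genes such as *Hes1*; without Notch, RBP-J can hold corepressors at the same sites. In mouse blood, Ly6Chi (classical) monocytes enter inflamed tissue and can convert into Ly6Clo (nonclassical) monocytes, which patrol the vessel wall, and Notch2 signalling favours this conversion.

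*Rbpj* itself (chr5:53466152-53657362, plus strand, GRCm38) had an FPKM of 8.30 in control against 2.43 in deficient Ly6Clo monocytes. In Ly6Chi monocytes it had 14.4 and 2.85. Here and below, of a pair of values the control comes first, and of 4 values the Ly6Clo pair comes first. What remained was 29.2% of the control FPKM in Ly6Clo and 19.8% in Ly6Chi monocytes, with log2 ratios of -1.44 and -2.0, so both libraries titled RBP-Jfl/fl were below both control libraries. The FPKM covers the whole gene and not the deleted exons alone. The gene ranked 28 of the 133 shared lower genes when these were ordered by the smaller of their differences in the 2 subsets. With a pseudocount of 5 in place of 1 its log2 ratio in Ly6Clo monocytes was -0.84, short of the threshold. Of the other members on chromosome 5 the nearest, *Bloc1s4*, lay 16.8 Mb away.

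RBP-J binds DNA at the core letters TGGGAA, and most strongly within GTGGGAA. Both strings were searched on either strand in the 250 bases before each RefSeq transcription start, every GTGGGAA also counting as a TGGGAA. Of the genes higher in both subsets, 45 of 57 had a promoter in the RefSeq table of GRCm38.p6, and 16 of their 60 promoters (26.7%) held the core. Of the genes lower in both, 111 of 133 had one, and 32 of 145 promoters (22.1%) held it, against 19.7% of 8427 promoters of the genes tested and 21.6% of all 32851. The longer string was in 2 promoters of the first group (3.33%) and 4 of the second (2.76%), beside 4.96% over the genes tested and 5.42% over all promoters. These counts are a description of letters and not of binding. The 6 members with GTGGGAA are shown because the longer string is the rarer one, followed by both core matches of *Rbpj* itself and those of *Jun* and *Tfeb*. Each line gives 60 bases from RefSeq, 5′ to 3′ on the strand of the gene, with the matched letters in capitals (TTCCCA and TTCCCAC are the same strings read on the other strand). *Rpl3l* and *Fam134b* (now *Retreg1*) are shared higher genes and the others shared lower genes.
Rpl3l, chr17:24727632-24727691, plus strand: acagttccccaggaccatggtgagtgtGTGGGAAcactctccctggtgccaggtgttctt
Fam134b, chr15:25933376-25933435, plus strand: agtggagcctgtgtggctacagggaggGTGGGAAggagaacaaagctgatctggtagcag
Egln2, chr7:27165751-27165810, minus strand: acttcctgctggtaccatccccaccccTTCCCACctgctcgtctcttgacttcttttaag
Ppp1r35, chr5:137778814-137778873, plus strand: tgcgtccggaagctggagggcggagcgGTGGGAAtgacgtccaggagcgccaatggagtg
Rrp9, chr9:106477232-106477291, plus strand: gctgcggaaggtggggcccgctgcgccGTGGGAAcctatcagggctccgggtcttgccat
Gga1, chr15:78877105-78877164, plus strand: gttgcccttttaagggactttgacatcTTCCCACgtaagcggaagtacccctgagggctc
Rbpj, chr5:53590170-53590229, plus strand: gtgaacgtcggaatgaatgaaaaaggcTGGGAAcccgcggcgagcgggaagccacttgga
Rbpj, chr5:53590254-53590313, plus strand: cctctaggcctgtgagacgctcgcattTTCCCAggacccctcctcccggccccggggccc
Tfeb, chr17:47736942-47737001, plus strand: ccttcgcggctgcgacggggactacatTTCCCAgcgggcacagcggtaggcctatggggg
Jun, chr4:95052251-95052310, minus strand: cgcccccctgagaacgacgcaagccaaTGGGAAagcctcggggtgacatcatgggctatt
*Hes1*, *Cebpd* and *Erdr1* have no entry in the promoter table.

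**Figure D1:**
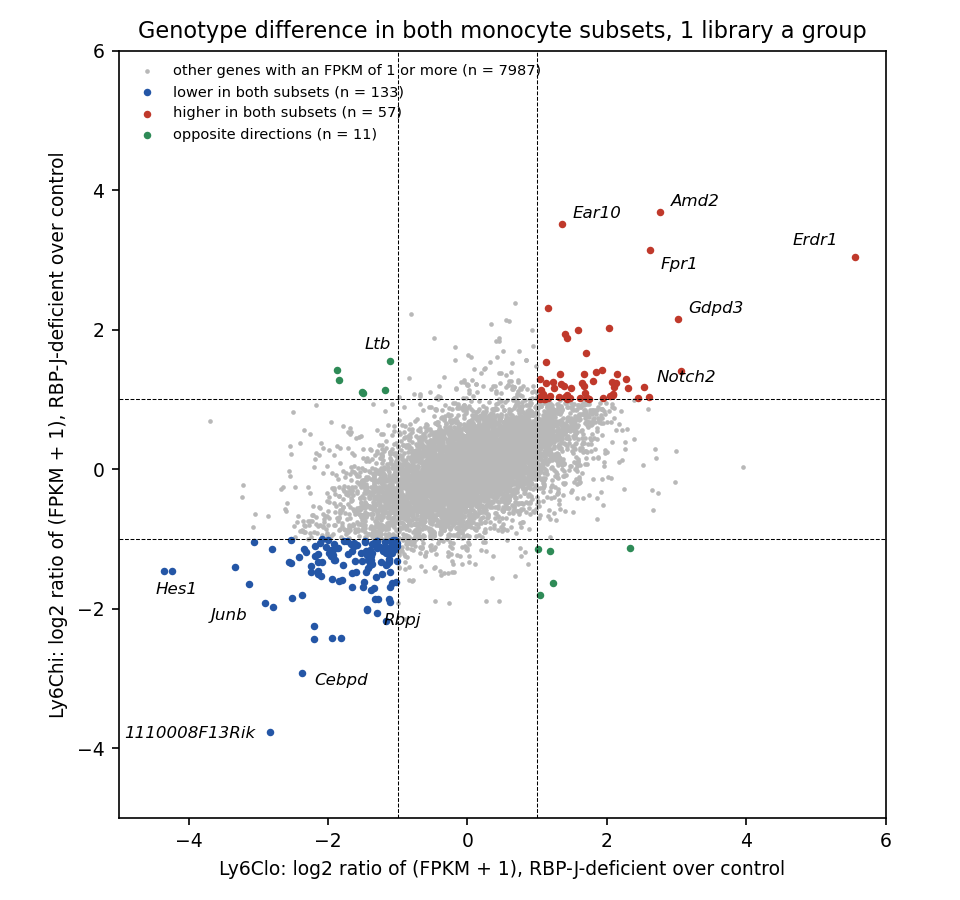
Log2 of the deficient-to-control ratio of (FPKM + 1) in Ly6Clo (horizontal) against Ly6Chi monocytes (vertical) for the 8188 genes tested, each point 1 gene and each axis 1 pair of libraries. Dashed lines mark 2-fold, and the 57 red, 133 blue and 11 green points beyond both are the members, with *Erdr1* farthest to the right at 5.55 and *1110008F13Rik* lowest at -3.77.

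In Ly6Clo monocytes 757 genes (9.25% of those tested) were 2-fold or more above control without RBP-J and 850 (10.4%) lower, and in Ly6Chi monocytes 163 (1.99%) were higher and 247 (3.02%) lower. The Ly6Clo lists were the longer ones, so the shared genes made up a smaller part of them than of the Ly6Chi lists. The 57 shared higher genes were 7.53% of the Ly6Clo list, beside the 1.99% of genes tested that were higher in Ly6Chi. They were 35% of the Ly6Chi list, beside the 9.25% higher in Ly6Clo. The 133 shared lower genes were 15.6% of the Ly6Clo list, beside the 3.02% lower in Ly6Chi. They were 53.8% of the Ly6Chi list, beside the 10.4% lower in Ly6Clo. The opposite genes were at most 3.68% of any list. Over all genes tested, 5882 (71.8%) had the same sign in both subsets, with a Pearson correlation of 0.56 and a Spearman correlation of 0.57 over the genes, which are no replicates of one another. No library is common to both ratios, but whether libraries of one genotype share a preparation or run is not given in the sources used here.

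Most members differed more in Ly6Clo than in Ly6Chi monocytes, as did most genes tested. The median log2 ratio of the shared higher genes was 1.65 in Ly6Clo and 1.19 in Ly6Chi monocytes, and 43 of 57 (75.4%) had the larger difference in Ly6Clo, beside 69.6% of the genes tested. For the shared lower genes the medians were -1.49 and -1.25, and 88 of 133 (66.2%) had the larger difference in Ly6Clo. The median over all genes tested was 0.07 in Ly6Clo and 0.03 in Ly6Chi monocytes. Past 4-fold in both subsets there were 9 genes, the higher *Erdr1*, *Amd2*, *Fpr1*, *Gdpd3* and *Ubl4* and the lower *1110008F13Rik*, *Cebpd*, *Tbc1d20* and *Emc10*.

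Shared higher and shared lower genes differed in the subset that normally had more of their RNA. Of the 57 shared higher genes, 52 (91.2%) had a higher FPKM in control Ly6Clo than in control Ly6Chi monocytes, against 51.9% of the genes tested, and the RBP-J-deficient Ly6Clo library was the highest of the 4 for 55. Of the 133 shared lower genes, 32 (24.1%) were higher in control Ly6Clo, and the control Ly6Chi library was the highest of the 4 for 101. The control libraries also enter the ratios, so this is a description. Both RBP-J-deficient values lay above both control values for 45 of the 57 genes (24.4% of all genes tested did so). They lay below both for 131 of the 133 (21.5% of all genes tested). The choice of members by these same values favours both counts. *Slamf9* and *Cd36*, whose control levels differed widely between the subsets, were among the exceptions.

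Besides *Rbpj*, the genes *Fpr1*, *Notch2* and *1110008F13Rik* were taken as markers of the shared difference. They were chosen with earlier results of these data known, so their values are a description. *Fpr1* (chr17:17876471-17883940, minus strand), which encodes a receptor for formylated peptides released by bacteria and mitochondria, had an FPKM of 59.5 in control against 370.2 in deficient Ly6Clo monocytes. In Ly6Chi monocytes it had 6.82 and 67.7. The log2 ratios were 2.62 and 3.14, and even the Ly6Chi library without RBP-J was above the control Ly6Clo library, although control Ly6Chi cells had little *Fpr1*. Of 20 listed formyl peptide and other chemoattractant receptors 11 were tested, and *Fpr1* was the 1 member, beside 2.45% of all genes tested. *Notch2* (chr3:98013527-98150361, plus strand), the Notch receptor with the highest level in these monocytes, had 126 and 732 in Ly6Clo and 70.3 and 161 in Ly6Chi monocytes. Its log2 ratios were 2.53 and 1.18, so the receptor's transcript was higher in both subsets that lacked *Rbpj*. *1110008F13Rik* (now *Rab5if*, chr2:156863128-156873563, plus strand) had 103 and 13.6 in Ly6Clo and 116 and 7.61 in Ly6Chi monocytes. With log2 ratios of -2.83 and -3.77 it was the shared lower gene with the largest difference in Ly6Chi monocytes. Its 3′ part overlaps *Sla2*, an adaptor gene of antigen receptor signalling on the minus strand, which was itself a shared lower gene at 29.2, 7.59, 29.8 and 4.73 in the same order. The libraries are not stated to keep strand, so reads from the stretch where these genes overlap cannot be told apart.

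Of the Notch pathway genes tested, *Notch2*, *Rbpj* and *Hes1* were members, in lists chosen with earlier results known. Over all genes tested 2.45% were members. *Hes1* (chr16:30064384-30067796, plus strand), the repressor that is the best known target of Notch, had an FPKM of 238 in control against 11.7 in deficient Ly6Clo monocytes. In Ly6Chi monocytes, where the control level was lower, it had 40.5 and 14.1. The log2 ratios were -4.24 and -1.46, and both deficient libraries ended at a like level from unlike controls. Of 17 listed Notch target genes only 4 passed the FPKM filter, and the 3 besides *Hes1* were past 2-fold in Ly6Clo monocytes alone. There *Hes6* (log2 ratio -1.47) and *Bcl2* (-1.05) were lower and *Cdkn1a* (1.29) was higher. Among the listed targets that the filter left out, *Nrarp* had 10.3 and 0 in Ly6Clo but 0.716 and 0.767 in Ly6Chi monocytes. It was thus not lower in both subsets. Of 29 cofactors and modifiers of the pathway, 23 were tested and *Rbpj*, the deleted gene, was the 1 member. *Lfng*, a glycosyltransferase that modifies Notch receptors, was past 2-fold lower in both subsets at 3.36 and 0.761, then 5.50 and 1.90, but was left out by the filter because 1 value was below 1. Of 9 receptors and ligands only *Notch2* was tested.

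**Figure D2:**
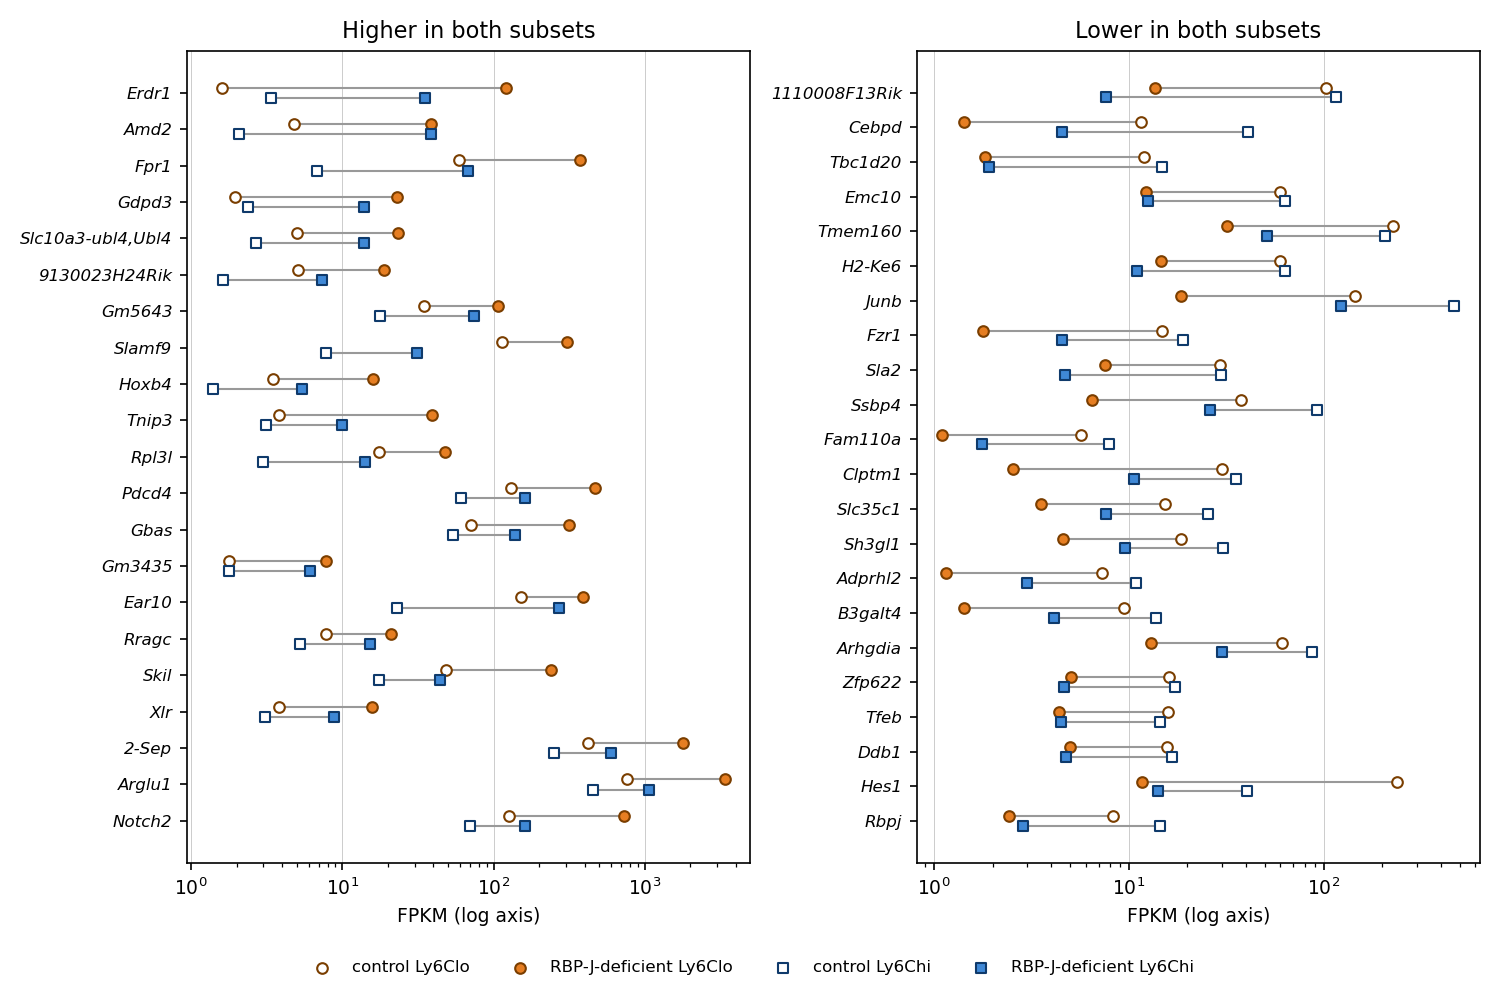
FPKM on a log axis of the 20 shared higher genes whose difference was largest in the subset where it was smaller and *Notch2* (left), and of the 20 shared lower genes and *Hes1* and *Rbpj* (right). Circles are Ly6Clo and squares Ly6Chi libraries, open symbols control and filled symbols RBP-J-deficient, 1 library each, and every filled symbol lies to the right (left panel) or left (right panel) of its open partner. The label 2-Sep stands for *Sept2*.

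The 20 shared higher genes that ranked first were of mixed function. *Erdr1*, an erythroid differentiation regulator gene listed on the Y chromosome, headed them with 1.61 in control against 121 in deficient Ly6Clo monocytes and 3.38 and 35 in Ly6Chi monocytes. Its log2 ratios were 5.55 and 3.04. *Amd2*, an S-adenosylmethionine decarboxylase gene of polyamine synthesis, had 4.82 and 38.5 in Ly6Clo and 2.08 and 38.6 in Ly6Chi monocytes. Its deposited position is that of the near-identical *Amd1*, and *Erdr1* has copies on both sex chromosomes, so the values of both are uncertain. *Gdpd3*, a lysophospholipase D gene, had 1.95 and 22.9 in Ly6Clo and 2.36 and 13.9 in Ly6Chi monocytes. *Ubl4* (now *Ubl4a*), a cochaperone of the pathway that inserts tail-anchored proteins, had 4.98 and 23.5, then 2.69 and 14, counted jointly with the read-through transcript of its neighbour *Slc10a3*.

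Others of these 20 serve immune cells or signalling. *Slamf9*, a SLAM family surface receptor of myeloid cells, had 113 in control against 306 in deficient Ly6Clo monocytes, and 7.77 and 31.2 in Ly6Chi monocytes. *Tnip3*, which restrains NF-κB signalling, had 3.78 and 39, then 3.11 and 9.93, with log2 ratios of 3.06 and 1.41. *Skil*, which encodes the TGF-β signalling repressor SnoN, had 48.6 and 239, then 17.6 and 44.3. These 3 genes all differed past 2-fold in both subsets, but the control Ly6Clo values of *Slamf9* and *Skil* stayed above their RBP-J-deficient Ly6Chi values. *Ear10*, an eosinophil-associated ribonuclease gene of a family with near-identical members, had 152 and 391 in Ly6Clo and 22.9 and 272 in Ly6Chi monocytes. It was the ranked gene whose Ly6Chi ratio (3.51) most exceeded its Ly6Clo ratio (1.35), and the 1 of the 19 with a GC value that dropped below 2-fold in Ly6Clo monocytes when the trend of the ratio with GC content was subtracted. *Pdcd4*, an inhibitor of translation initiation, had 130.0 and 467, then 61.2 and 162.

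The most abundant of the ranked higher genes was *Arglu1*, which encodes a splicing and transcription cofactor, with 768 in control against 3374 in deficient Ly6Clo monocytes and 453 and 1069 in Ly6Chi monocytes. *Sept2*, a septin of the cytoskeleton whose symbol had become a date in the deposited table, had 424 and 1778, then 250.1 and 597. *Gbas* (now *Nipsnap2*), which encodes a mitochondrial protein, had 70.6 and 315, then 53.5 and 139. For all 3 the RBP-J-deficient Ly6Clo library stood highest by a wide margin. *Hoxb4*, a homeobox gene of haematopoietic stem cells, was low throughout at 3.46, 15.9, 1.39 and 5.38 in the order given above. *Rragc*, which encodes a Rag GTPase that signals amino acids to mTORC1, had 7.77, 20.9, 5.25 and 15.1 in the same order. *Rpl3l*, a muscle paralog of the ribosomal protein gene *Rpl3*, had 17.4, 47.6, 2.98 and 14.2. The X-linked *Xlr* and the gene models *9130023H24Rik*, *Gm3435* and *Gm5643*, the last a processed pseudogene and so uncertain, completed the 20. The 37 shared higher genes that ranked after them had log2 ratios of 1.04 to 2.61 in Ly6Clo and 1.0 to 2.31 in Ly6Chi monocytes.

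The 20 shared lower genes that ranked first are given with their known roles, with no test of any function as a group. *Emc10*, a subunit of the membrane protein insertase EMC, had 59.6 in control against 12.2 in deficient Ly6Clo monocytes, and 63.3 and 12.5 in Ly6Chi monocytes. *Tbc1d20*, a GTPase-activating protein for Rab1, had 12 and 1.82, then 14.8 and 1.93. *Slc35c1*, the GDP-fucose transporter of the Golgi, had 15.4 and 3.56, then 25.4 and 7.66. In each of these the levels in the control libraries were alike or higher in Ly6Chi, and both deficient libraries were below both. *Sh3gl1* (endophilin A2, endocytosis) had 18.5, 4.60, 30.6 and 9.55. *Tfeb*, the transcription factor that drives lysosome genes, had 15.9, 4.37, 14.4 and 4.49, and its log2 ratios were -1.65 and -1.49. The glycosyltransferase *B3galt4* had ratios of -2.11 and -1.53, and *Clptm1* of -3.14 and -1.65.

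The shared lower genes also held transcription factors of the C/EBP and AP-1 families. *Cebpd*, a C/EBP factor that acute inflammation induces, had an FPKM of 11.5 in control against 1.42 in deficient Ly6Clo monocytes, and 41.1 and 4.54 in Ly6Chi monocytes. *Junb* had 146 and 18.6, then 468 and 123, which gave log2 ratios of -2.91 and -1.93. *Jun* had 23.1 and 6.07, then 33.8 and 16.1, just past the threshold in Ly6Chi monocytes at -1.02. *Zfp36*, which encodes the mRNA-destabilising protein tristetraprolin, had 203 and 53.9, then 322 and 147. Of 25 listed AP-1 and immediate early genes 17 were tested, and *Jun*, *Junb* and *Zfp36* were the 3 members, all lower, beside 1.62% of all genes tested that were lower in both subsets, in a list chosen with earlier results known. The list had medians of -0.52 in Ly6Clo and -0.28 in Ly6Chi monocytes.

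Others of the 20 ranked lower genes have unlike roles. *Fzr1*, an activator of the anaphase-promoting complex, had 14.9 and 1.78 in Ly6Clo and 19 and 4.54 in Ly6Chi monocytes. *Ddb1*, an adaptor of CUL4 ubiquitin ligases, had 15.6 and 4.97, then 16.6 and 4.75. *Arhgdia* had 61 and 13, then 87 and 30.1. For *Ddb1* the 4 values formed 2 tight pairs by genotype, while for *Arhgdia* the RBP-J-deficient Ly6Chi value was well above the deficient Ly6Clo one. *Tmem160*, the most abundant in control Ly6Clo of these 20, had 226 and 31.8, then 206 and 51.5. *H2-Ke6*, which encodes a hydroxysteroid dehydrogenase, had 59.6, 14.7, 63.3 and 11. *Ssbp4* had log2 ratios of -2.38 and -1.80, *Fam110a* of -1.66 and -1.70, and *Zfp622* of -1.49 and -1.69. *Adprhl2*, an ADP-ribosylhydrolase gene, had ratios of -1.94 and -1.57. The 113 lower genes that ranked after the 20 had log2 ratios from -4.36 to -1.0 in Ly6Clo and from -2.18 to -1.0 in Ly6Chi monocytes.

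The members named next were picked after their values were seen, for what they encode. Of innate immune signalling, *Rela* (the NF-κB subunit p65) was lower at 29.3 and 10.7 in Ly6Clo and 29.5 and 10.9 in Ly6Chi monocytes. *Socs3*, a feedback inhibitor of cytokine receptors, had 33.9 and 6.35, then 25.8 and 8.67. For *Rela* the subsets were nearly equal within each genotype. *Unc93b1*, which carries nucleic acid-sensing Toll-like receptors to endosomes, had 182 and 45.9, then 383 and 169. *Dusp6*, a dual-specificity phosphatase gene, had log2 ratios of -2.42 and -1.26, the adaptor *Card9* of -1.23 and -1.51, and *Mavs* of -1.39 and -1.15. In the other direction, *Irak4*, a kinase of Toll-like receptor signalling, had 39.7 and 109, then 33.3 and 71.1. *Clec4e*, the receptor Mincle, had 92.9 and 313, then 41.2 and 83.8. *Abcg1*, a cholesterol exporter, had 227 and 743, then 79 and 161. *H2-L* had the largest Ly6Clo difference of the lower genes, 243 and 10.9 (log2 ratio -4.36), with 205 and 73.9 in Ly6Chi monocytes. Its deposited position is that of *H2-D1*, a closely related MHC class I gene, and its value is uncertain for that reason.

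Markers of the subsets were shared about as often as other genes, with 1 of 42 tested markers (2.38%) past 2-fold in the same direction in both subsets, beside 190 of 8188 genes tested (2.32%). None of 19 tested Ly6Chi markers was a member, and their median log2 ratio was 1.09 in Ly6Clo and -0.19 in Ly6Chi monocytes. Of 23 tested Ly6Clo markers, with medians of -0.45 and 0.87, only *Cd36* was higher in both subsets, and *Dusp16* and *Slc12a2* went in opposite directions. *Cd36*, a scavenger receptor, had 426 and 945 in Ly6Clo and 26.9 and 137 in Ly6Chi monocytes. These medians had opposite signs in the subsets under each scaling tried, and whether cells of one subset entered the gate of the other was not tested. None of 63 cytosolic ribosomal protein genes (medians 0.37 and 0.14) and none of 21 tested interferon-stimulated genes was a member, the latter with medians of 0.28 and -0.20, of which the first turned to -0.02 with TPM and to -0.01 with the GC trend subtracted. Of 10 listed monocyte defining markers 9 had a value, and all 9 passed the FPKM filter. None of them was a member, and their summed FPKM was 3112 to 3532. Within that sum single markers differed widely in Ly6Clo monocytes, where *Spi1* had 903 and 211, *Csf1r* 407 and 158 and *Ccr2* 59.2 and 474. *Cd68*, at 1713 and 2108, made up most of it.

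Of the 11 genes of opposite direction, 6 were lower in Ly6Clo and higher in Ly6Chi monocytes. *Dusp16*, a phosphatase of JNK and p38 and a Ly6Clo marker, had an FPKM of 107 in control against 28.9 in deficient Ly6Clo monocytes, and 4.33 and 11.9 in Ly6Chi monocytes. *Ltb*, which encodes lymphotoxin β, had 143 and 65.3, then 12.2 and 37.6. *Cited4*, a CBP/p300 interacting protein gene, had 13.5 and 2.96, then 2.82 and 9.20. All 6 had their highest level in the control Ly6Clo and their lowest in the control Ly6Chi library. Their median difference between Ly6Clo and Ly6Chi, as log2 of (FPKM + 1), was 3.28 for the control and 0.66 for the deficient libraries, a narrowing that the choice of these genes requires. *Slc12a2*, an ion cotransporter gene and Ly6Clo marker, had 30.4, 12.9, 1.62 and 4.75. *Mccc2*, of leucine breakdown, had 40.1, 13.4, 4.55 and 10.9. *Smagp*, a small membrane glycoprotein gene, had 45.8, 15.6, 4.39 and 10.5.

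Of the 5 genes higher in Ly6Clo and lower in Ly6Chi monocytes, *5430435G22Rik* (now *Rab7b*, a late endosome GTPase) differed most, with 2.68 in control against 17.5 in deficient Ly6Clo monocytes and 20.8 and 8.96 in Ly6Chi monocytes. It was also the 1 of the 5 still past 2-fold in both subsets after the values were rescaled to TPM. *Npm3*, a nucleolar chaperone gene, had 9.60 and 23.7, then 6.52 and 1.43. *Gmds*, the enzyme that begins GDP-fucose synthesis, had 2.56 and 7.09, then 5.87 and 2.05. *2310009B15Rik* had 5.93, 13.3, 13.3 and 3.10, and *Tusc1* had 2.74, 6.51, 4.67 and 1.56. With a pseudocount of 5 none of these 5 and only *Ltb* of the other 6 stayed past 2-fold in both subsets.

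**Figure D3:**
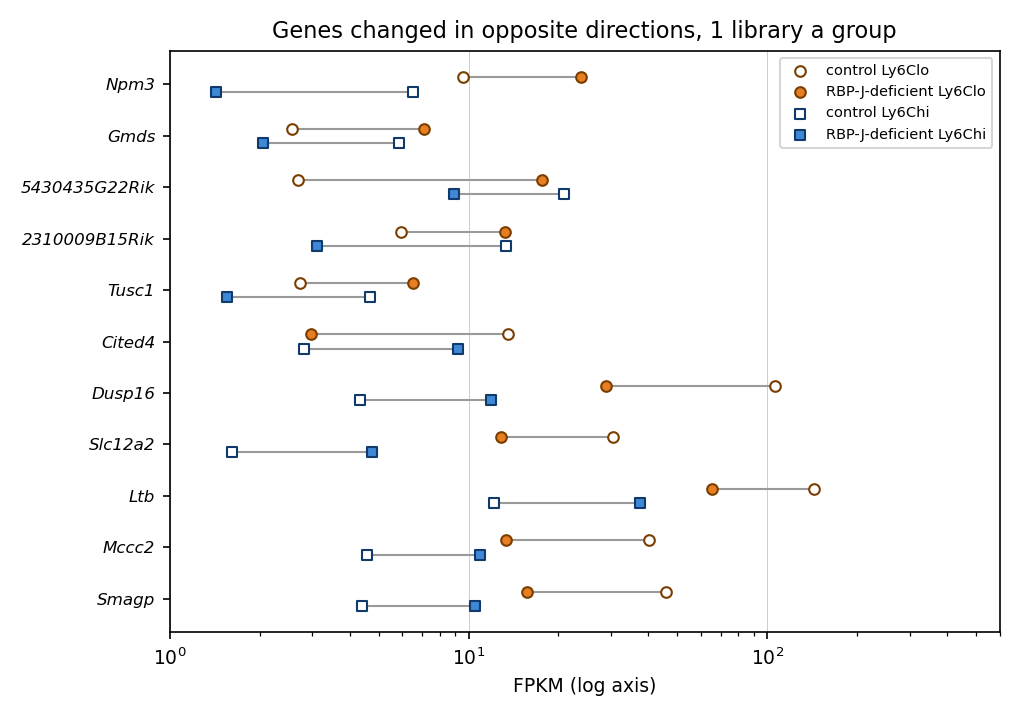
FPKM on a log axis of the 11 genes that differed 2-fold or more in opposite directions, the upper 5 higher in Ly6Clo and lower in Ly6Chi monocytes without RBP-J and the lower 6 the other way round. Open symbols are control and filled symbols RBP-J-deficient libraries, circles Ly6Clo and squares Ly6Chi, 1 library each, and in the lower 6 genes both filled symbols lie between the open ones.

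GC content, which the choice of members did not use, was high among the shared lower genes. The longest annotated transcript had a median GC content of 55.7% for the 132 shared lower genes with a value, 47.2% for 56 shared higher genes and 48.8% for 8136 genes tested. With the genes tested split into 3 equal classes by GC content, the shared lower genes numbered 8 (0.295% of the genes in the class), 29 (1.07%) and 95 (3.50%) from low to high, and the shared higher genes 23, 16 and 17. In both subsets the log2 ratio went down with GC content across all genes tested, with a Spearman correlation of -0.36 in Ly6Clo and -0.28 in Ly6Chi monocytes over 8136 genes. After this trend was subtracted in each subset, 78 of the 132 shared lower genes with a GC value and 37 of the 56 shared higher genes with one were still past 2-fold in both subsets. Of the ranked genes with a value, all 20 lower ones and 18 of 19 higher ones were still past it. *Erdr1* and *H2-L* have no GC value, so the trend could not be subtracted for them. What underlies this trend was not tested.

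**Figure D4:**
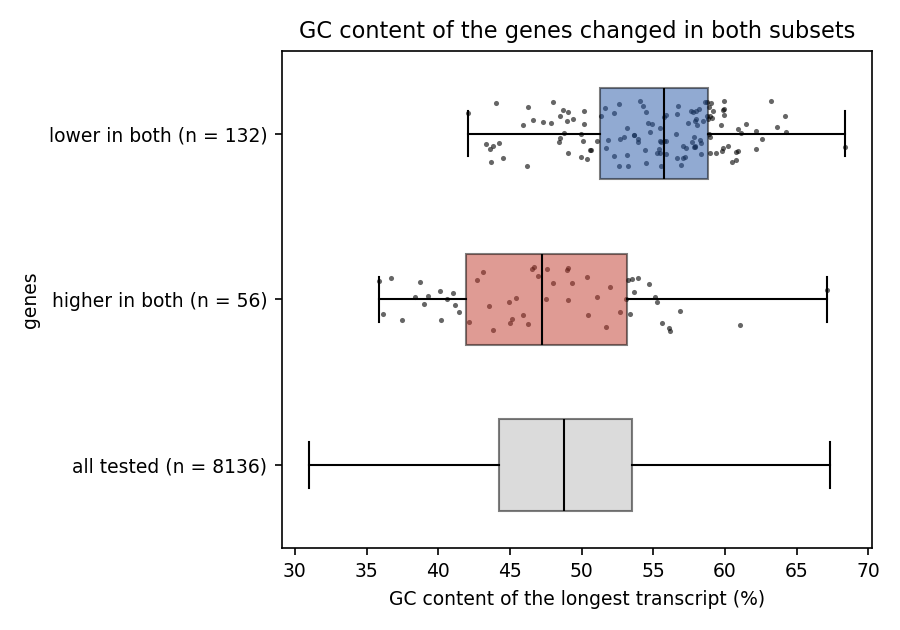
GC content in percent of the longest GENCODE transcript of the genes tested, of the shared higher and of the shared lower genes. Boxes span the quartiles with the median as a line, whiskers the range without outliers, points are single members, and the shared lower genes sit at a median of 55.7%, above 48.8% for all genes tested.

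By median, transcripts were 2559.5 bases long for the shared higher genes, 2823.5 for the shared lower genes and 3138.5 over all genes tested. Of the shared higher genes 51 of 57 were protein coding and of the shared lower genes 131 of 133. By GENCODE position, 44 of the 198 members that have one overlapped another coding gene, for which reads can be shared. The deposited position can differ from it, and that of *Palm* spans many other coding genes. For 1 member, *Acsl4*, the deposited table marks an estimate as failed.

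The threshold cut through a continuous range. Just inside it among the higher genes were *Adat2*, with log2 ratios of 1.109 in Ly6Clo and 1.004 in Ly6Chi monocytes, and *5430417L22Rik* with 1.037 and 1.005. Just outside were *Gbp6* with 1.324 and 0.994 and *Mknk2* with 0.991 and 1.092. Among the lower genes *Spsb2* with -2.086 and -1.002 and *Atat1* with -1.004 and -1.066 were just inside. *Tmem104* with -0.998 and -1.188 and *Mlf2* with -2.292 and -0.998 were just outside.

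Some measures of the whole libraries also differed by genotype. The FPKM values summed to 717376 in the control and 885648 in the deficient Ly6Clo library, and to 711555 and 763721 in Ly6Chi monocytes. Rescaled to TPM (the same sum in each library), the shared counts were 37 higher and 260 lower (12.5% higher) in place of 57 and 133 (30.0% higher). TPM moved the median log2 ratio of all genes tested to -0.20 in Ly6Clo and -0.06 in Ly6Chi monocytes. All 133 shared lower genes and 32 of the 57 higher ones were still past 2-fold. None of the 201 members changed sign in either subset, which a shift of this size could not bring about in genes past 2-fold. The table lists *Actb* at 0 in both libraries without RBP-J, against 27260 in control Ly6Clo and 22795 in control Ly6Chi monocytes. No reason for the 0 is given in the sources used here, so it is not read as a level of the gene. The FPKM sums above include these values as listed. None of the 5 neutrophil, 4 dendritic cell, 1 NK cell and 1 B cell markers tested was a member. T cell markers, none of which passed the filter, summed to at most 5.40 FPKM in any library. The B cell marker *Cd79b* had 41.9, 100.2, 23.7 and 43.7 FPKM, and the other B cell markers in the table summed to 31, 3.27, 3.01 and 4.81. Platelet and erythroid markers summed to 1708, 400.4, 710.1 and 680.2 in that order. The haemoglobin gene *Hba-a2* alone had 1171, 89.4, 113.2 and 182.6, so the sum does not follow platelet RNA. The platelet gene *Pf4* had 56.5, 51.4, 155.9 and 120.4, and *Ppbp* had 55.8, 67.6, 154.4 and 153.1. The platelet gene *Gp9*, a shared lower gene at 6.11, 1.16, 15.5 and 6.06, was the 1 member among 8 tested. Over all genes tested 2.45% were members. The platelet gene *Itga2b* was also past 2-fold lower in both subsets, at 3.10, 0.929, 14.4 and 5.62. It was left out by the filter because 1 value was below 1. *Gp1bb*, at 3.97, 2.96, 10.1 and 8.17, stayed within 2-fold, as did *Pf4* and *Ppbp*. The part of platelets in the value of *Gp9* was not tested.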

How the data were processed

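Blood monocytes sorted as Ly6Clo and Ly6Chi gave 4 paired-end RNA-seq libraries, 1 for each genotype and subset. The authors deposited FPKM values per gene symbol in the format of Cuffdiff. Per the labels and the submitters' processing notes, TopHat2 2.1.0, Cufflinks 2.2.1, CASAVA 1.8 and the build mm10 were used, without their settings. The table also holds the authors' fold changes, p-values and q-values for pairs of libraries, which were not used. Each gene is listed once per pair of libraries, and the values of the pair compared were taken. Rows that share a symbol (2 symbols of 23995) were summed.

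The log2 of the deficient-to-control ratio of (FPKM + 1) was taken within each subset for the 8188 genes with an FPKM of 1 or more in all 4 libraries. The pseudocount understates differences of low genes. The threshold was 2-fold. FPKM values are no counts, no group had a second library, and the members were chosen on this contrast, so no test was made, although a model with genotype and subset would leave 1 residual degree of freedom. Read counts were not used here, so depth is unknown and no interval is given. Members and gene lists were chosen with earlier results of these data known. Named genes are *Rbpj*, *Fpr1*, *1110008F13Rik*, *Notch2*, the first 20 of each shared direction by the smaller of their differences, the 11 of opposite direction, the 2 on each side of the threshold in each direction, and members found in the gene lists. Others are said to be picked after their values were seen.

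GC content and length are those of the longest transcript in GENCODE M21, found for 99.4% of the genes tested. Positions are 1-based on GRCm38, from GENCODE or, for promoters, RefSeq GRCm38.p6. The GC trend was a lowess fit (fraction 0.3, 3 iterations) over genes whose mean FPKM was 5 or more. The procedure was tested on simulated data, with changes well past 2-fold planted in genes of high FPKM. That test cannot speak for calls near 2-fold or for genes of low FPKM. Alternatives covered the pseudocount (0.1, 5), filters, the fold, TPM, centring on the median, GC, failed estimates and the treatment of repeated symbols. Python 3.11.15, numpy 2.4.6, pandas 2.3.3, statsmodels 0.14.6 and matplotlib 3.10.9 were used.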

Additional observations from a re-analysis of the deposited data

Results flagged for a closer look

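The log2 ratio had opposite signs in the 2 subsets for 11 genes past 2-fold, and none of these differences between subsets was tested, since each rests on 1 library a group. The ratio in Ly6Clo minus that in Ly6Chi monocytes was 2.85 for *Npm3*, 2.36 for *Gmds*, 3.47 for *5430435G22Rik*, 2.84 for *2310009B15Rik* and 2.16 for *Tusc1*. It was -3.29 for *Cited4*, -3.13 for *Dusp16*, -2.32 for *Slc12a2*, -2.66 for *Ltb*, -2.61 for *Mccc2* and -2.59 for *Smagp*.

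The medians of 8 gene lists also had opposite signs, and these differences were not tested either. The median in Ly6Clo minus that in Ly6Chi monocytes was -1.30 for 4 Notch target genes, 1.28 for 19 Ly6Chi markers and -1.32 for 23 Ly6Clo markers. It was -0.45 for 11 formyl peptide and chemoattractant receptors, 0.48 for 21 interferon-stimulated genes, -0.24 for 4 sex-linked genes, 0.52 for 9 monocyte defining markers and 0.45 for 4 dendritic cell markers. The 4 sex-linked genes, *Ddx3y*, *Eif2s3y*, *Kdm5d* and *Uty*, are all Y-linked and passed the filter in all 4 libraries. The X-linked *Xist* had at most 0.00485 FPKM in any library. The Ly6Chi and Ly6Clo marker lists had opposite signs in the subsets also with TPM, with median centring and after subtraction of the GC trend, and the other 6 lists lost them in at least 1 of these. With TPM the medians in Ly6Clo and Ly6Chi monocytes were -1.56 and -0.06 for Notch targets, -0.02 and -0.30 for interferon-stimulated genes, -0.46 and -0.04 for sex-linked genes, -0.0049 and -0.32 for monocyte markers and -0.29 and -0.54 for dendritic cell markers. With the GC trend subtracted they were 0.16 and 0.28 for the chemoattractant receptors.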

How the results depend on the processing

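Counts are given as higher in both, lower in both, higher in Ly6Clo and lower in Ly6Chi, and the reverse, beside 57, 133, 5 and 6 as reported. They were 90, 209, 9 and 12 with a pseudocount of 0.1, 20, 49, 0 and 1 with a pseudocount of 5, and 31, 56, 0 and 1 with an FPKM of 5 or more in all libraries. They were 5, 4, 0 and 0 at 4-fold and 37, 260, 1 and 9 with TPM. With an FPKM of 1 or more in at least 1 library, and likewise without a filter, they were 74, 189, 16 and 9. Centring on the median gave 42, 160, 4 and 7, and subtracting the GC trend 58, 95, 4 and 4. The log2 ratio of *Rbpj* in Ly6Clo monocytes was -0.84 with a pseudocount of 5. A larger pseudocount shrinks ratios of low genes by construction, and the cause of the other shifts was not tested. Of 696 values of 58 named genes under the scalings, pseudocounts and row choices, *Rbpj* included, 45 crossed 2-fold and 0 changed sign. The lack of sign changes was largely fixed in advance. A pseudocount cannot reverse a ratio, and TPM and median centring moved ratios by less than the 2-fold threshold of the members. The labels give no replicate numbers, the libraries were paired by subset alone, and no library could be left out because each group held 1. With 1 library a group and unknown depth, a difference between libraries and one between genotypes cannot be told apart.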
